A study of Mus musculus with 4 samples.

Results

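The genes described here are 10 regulators and markers of the epithelial and mesenchymal states, *Zeb1*, *Zeb2*, *Snai1*, *Snai2*, *Twist1*, *Vim*, *Cdh2*, *Esrp1*, *Esrp2* and *Ovol1*. They were chosen by name, and each had to have a mean normalized count above 0 in the authors' deposited table of the 2 d comparison. All 10 met this, among 24421 genes listed and 17044 with a mean above 0. The data are bulk RNA-seq of bulge hair follicle stem cells (HF-SCs) from the back skin of sex-matched mice. The sort kept live cells with high H2BGFP, CD34 and α6 integrin and without Sca1. Both groups carried a Krt14-H2B-GFP allele and came from mice labelled C57BL/6, collected at postnatal day 44. The induced group carried a *miR-205* transgene under a doxycycline-responsive promoter (pTRE2) together with Krt14-rtTA, which confines the drug-dependent activator to cells with an active *Krt14* promoter, and received doxycycline chow from postnatal day 42. The control libraries are labelled untreated, whereas the protocol and methods have both groups fed doxycycline, so whether the controls received the drug cannot be settled from these sources. There were 2 libraries per group. The methods state in general that controls were littermates and that sequencing was done on pairs of control and induced mice, but not which libraries form a pair or whether mice were pooled.

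The table holds a mean over the 4 libraries and no value for a library. Because it is written to about 15 digits and reads come as whole numbers, the 4 read counts behind a mean could be solved for 16280 of the 17044 genes with a mean above 0, including all 10 regulators. The libraries are called the shallower and the deeper library of each group, with size factors (relative depths) of 0.716 and 1.24 in the control group and 0.966 and 1.18 in the induced group. Their reads in the solved genes numbered 3931905 to 6993279, which is part of each library and not its depth. All 18 HF-SC markers were detected, with means of 119883 for *Krt15*, 14575 for *Cd34* and 4432 for *Lgr5*, the keratin, surface protein and receptor by which bulge stem cells are usually recognised.

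In an epithelial-mesenchymal transition, cells lose junctions and polarity and gain the motility of connective tissue cells. ZEB, Snail and Twist proteins are transcription factors that repress epithelial genes such as *Cdh1*, whereas ESRP1 and ESRP2 keep the epithelial form of many spliced RNAs and OVOL1 represses the ZEB genes in skin. miR-205 and the miR-200 family are epithelial microRNAs known for pairing with the 3′UTRs of *Zeb1* and *Zeb2*, and ZEB proteins in turn repress miR-200 genes.

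The mature microRNAs are shown because their seeds (bases 2 to 8, in capitals) define the matches searched in the regulators. They are RefSeq sequences of mouse build GRCm38.p6, read 5′ to 3′, and fall into 3 seed groups. The seed of miR-205 differs from both miR-200 seeds, so matches to the 3 groups were counted separately.
mmu-miR-205-5p: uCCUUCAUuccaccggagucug
mmu-miR-200b-3p: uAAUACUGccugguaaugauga
mmu-miR-200c-3p: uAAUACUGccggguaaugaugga
mmu-miR-429-3p: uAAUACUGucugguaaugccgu
mmu-miR-200a-3p: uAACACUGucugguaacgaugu
mmu-miR-141-3p: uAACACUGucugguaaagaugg

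The letters searched, on the transcript strand of the longest GENCODE vM1 protein-coding 3′UTR (build NCBIM37), were ATGAAGG for bases 2 to 8 of miR-205, TGAAGGA for its bases 2 to 7 followed by an A, CAGTATT for miR-200b, miR-200c and miR-429, and CAGTGTT for miR-200a and miR-141. The first 2 overlap by 6 letters, so an ATGAAGG followed by an A counts under both. Of the 10 regulators, only *Zeb1* held ATGAAGG, with 1 match 738 bases into a 3′UTR of 2401 bases, and the A that follows makes it the 1 TGAAGGA of *Zeb1* too. *Zeb2*, with a 3′UTR of 4939 bases, held no ATGAAGG and 3 matches to TGAAGGA. These 3 are printed because they are the miR-205 seed-type letters in *Zeb2*, named by the position of the match in the 3′UTR, with the match in capitals.
Zeb2 at 573: ttttatttttttctgTGAAGGAacttgaag
Zeb2 at 637: aaagtgacctggatgTGAAGGAaaaagtaa
Zeb2 at 3483: tggagtgggagggccTGAAGGAggaaggag
*Twist1* held 1 such match, shown for comparison.
Twist1 at 523: aaaccatacttcctcTGAAGGAaaagaaaa
Matches for the miR-200 seeds were more numerous in the ZEB genes. *Zeb1* and *Zeb2* each held 5 CAGTATT and 4 CAGTGTT. The CAGTATT nearest the start of the *Zeb2* 3′UTR that is followed by an A is printed as an example.
Zeb2 at 458: cgcactacagtgcatCAGTATTacgattcc
*Snai1* held 1 CAGTATT and *Snai2* 1 CAGTATT and 1 CAGTGTT, while *Vim*, *Cdh2*, *Esrp1*, *Esrp2* and *Ovol1* held none of the 4 motifs. The authors' capture of miR-205 ligated to target RNAs (CLEAR-CLIP) lists *Snai2* among the bound mRNAs. Neither miR-205 motif was found in its 3′UTR here, so the absence of a motif does not show that miR-205 leaves an mRNA unbound. Over the 14417 genes with a 3′UTR, 11.8% held ATGAAGG, 15.6% TGAAGGA, 13.9% CAGTATT and 18.7% CAGTGTT. Among the 659 genes whose 3′UTR was 4000 to 6000 bases long, as that of *Zeb2* is, the shares were 33.5%, 44.2%, 39.3% and 52.5%. A match says that these letters are present and does not show that the site is used.

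The RNA of *Zeb1* and *Zeb2* was scarce in the sorted cells, and neither gene was lower in the induced group beyond the spread between libraries. *Zeb1* (chromosome 18, 5591327 to 5775468, plus strand, GRCm38.p6) is a zinc finger and homeobox repressor of epithelial genes. Its normalized counts were 22.3 and 33.2 in the shallower and deeper control libraries and 43.5 and 15.3 in the shallower and deeper induced libraries, from 16, 41, 42 and 18 reads. The induced libraries were the highest and the lowest of the 4, so both control values lay between them. In the authors' deposited table, the log2 fold change (induced over control) of *Zeb1* was 0.06, with a standard error of 0.69 (95% interval -1.30 to 1.42), and the DESeq2 p-value, adjusted by Benjamini-Hochberg over all 17044 genes, was 0.999. At this depth the interval takes in a fall to 40.6% and a rise to 267% of the control level. Without the shallower induced library, the log2 ratio of the group means (pseudocount 1) turned to -0.82, and without the shallower control library to -0.17.

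*Zeb2* (chromosome 2, 44983512 to 45117442, minus strand), the paralog of *Zeb1*, had normalized counts of 40.5 and 62.3 in the control libraries and 92.1 and 81.4 in the induced libraries, from 29, 77, 89 and 96 reads. Both induced values lay above both control values. Its log2 fold change was 0.74 with a standard error of 0.43 (95% interval -0.10 to 1.58), an unadjusted p of 0.0853 and a DESeq2 Benjamini-Hochberg adjusted p of 0.757. The lower bound of that interval leaves 93.2% of the control level. In the GENCODE vM1 annotation, 458 bases of *Zeb2* exons overlap the antisense gene *Gm13476*, and the strand setting of the counting is not given in the sources used here. Per kb of exon, *Zeb2* stood above *Zeb1* in all 4 libraries, by 1.15 and 1.19 times in the control libraries and by 1.34 and 3.37 times in the induced ones.

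**Figure D1:**
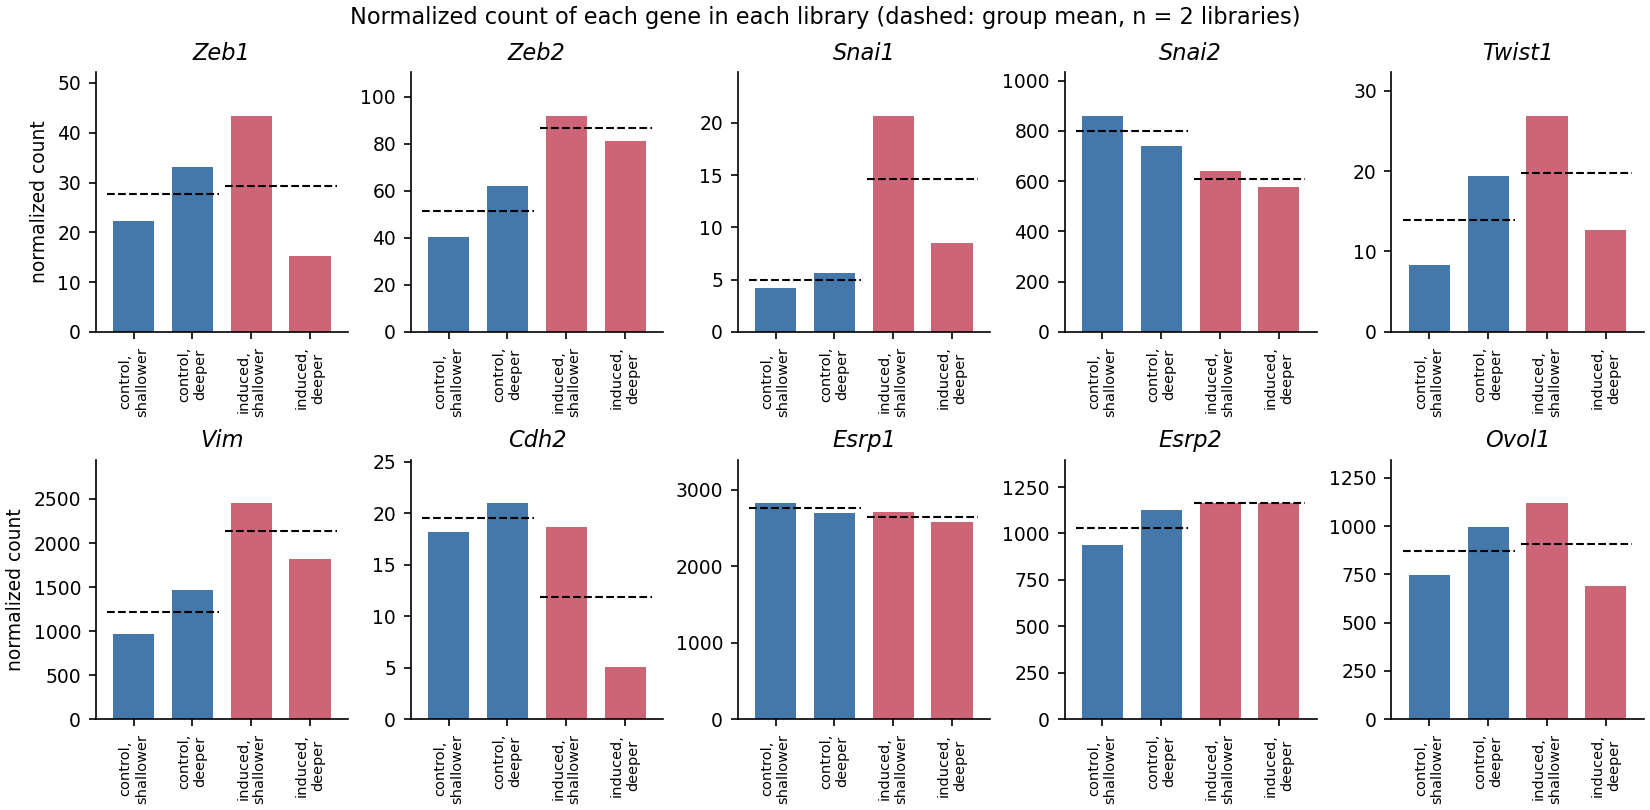
Normalized count (read count divided by size factor, linear axis from 0) of each of the 10 regulators in the shallower and deeper control libraries (blue) and the shallower and deeper induced libraries (red), with dashed lines at the group means. *Zeb1*, *Twist1*, *Ovol1* and *Esrp1* have 1 induced library above and 1 below the deeper control library, while both induced libraries lie above both control libraries for *Zeb2*, *Snai1*, *Vim* and *Esrp2* and below them for *Snai2*.

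Of the Snail family, *Snai2* was abundant and *Snai1* scarce, and neither passed the test. *Snai2* (Slug, chromosome 16, 14705852 to 14709395, plus strand), a repressor also found in basal keratinocytes, had normalized counts of 861 and 740 in the control libraries and 642 and 576 in the induced libraries. Every induced value lay below every control value. The fold change of *Snai2* on the log2 scale was -0.39 (standard error 0.17, 95% interval -0.73 to -0.06), which is 76.1% of the control level. The unadjusted p was 0.0210, and after DESeq2 Benjamini-Hochberg adjustment over all genes the p was 0.368, so it did not pass. With the median log2 fold change of genes of like mean subtracted, the value was -0.33, with an unadjusted p of 0.0503.

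*Snai1* (chromosome 2, 167538195 to 167542814, plus strand), the other Snail repressor, was near the limit of detection. Its normalized counts were 4.19 and 5.66 in the control libraries and 20.7 and 8.48 in the induced libraries, from 3, 7, 20 and 10 reads. The groups did not overlap, but the induced libraries differed from each other by 2.44 times. For *Snai1* the log2 fold change was 1.54 with a standard error of 1.12 (95% interval -0.65 to 3.73) and a DESeq2 Benjamini-Hochberg adjusted p of 0.962. Per kb of exon, *Snai2* exceeded *Snai1* by 164 and 104 times in the control libraries and by 24.7 and 54.2 times in the induced ones.

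*Twist1* (chromosome 12, 33957671 to 33959831, plus strand), a basic helix-loop-helix factor of mesenchymal cells, had normalized counts of 8.38 and 19.4 in the control libraries and 26.9 and 12.7 in the induced libraries, from 6, 24, 26 and 15 reads. The control and induced ranges overlapped. For *Twist1* the log2 fold change was 0.47 with a standard error of 0.86 (95% interval -1.21 to 2.16). The log2 ratio of solved group means (pseudocount 1) turned to -0.12 without the shallower induced library.

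Of the mesenchymal structural genes, *Vim* was abundant and *Cdh2* scarce. *Vim* (chromosome 2, 13574311 to 13582826, plus strand) encodes the intermediate filament protein vimentin. Its normalized counts were 963 and 1468 in the control libraries and 2457 and 1818 in the induced libraries, and the groups did not overlap. Its log2 fold change was 0.81 with a standard error of 0.37 (95% interval 0.09 to 1.53), or 1.76-fold, with an unadjusted p of 0.0268 and a DESeq2 Benjamini-Hochberg adjusted p of 0.428. With the median of genes of like mean subtracted, the value was 0.96, with an unadjusted p of 0.0091 and an adjusted p of 0.339. Under limma on the log2 of the solved normalized counts plus 1, *Vim* passed. Its limma log2 fold change was 0.83, with a Benjamini-Hochberg adjusted p of 0.0296 over 16280 genes. *Snai2* (-0.39, limma p 0.00794, adjusted p 0.184) and *Zeb2* (0.77, limma p 0.0262, adjusted p 0.309) did not pass in that fit. With any 1 library left out of that fit, 0 of all genes passed, so the loss of *Vim* there (adjusted p 0.523 to 0.708) is no sign of a weaker difference. Its log2 ratio of solved group means (pseudocount 1) was then 0.54 to 1.15. The control libraries differed from each other by 1.52 times and the induced libraries by 1.35 times.

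*Cdh2* (chromosome 18, 16588877 to 16809246, minus strand) encodes N-cadherin, the adhesion protein that mesenchymal cells carry in place of E-cadherin. Its normalized counts were 18.1 and 21.0 in the control libraries and 18.6 and 5.09 in the induced libraries, from 13, 26, 18 and 6 reads. The deeper induced library stood alone below the other 3. For *Cdh2* the log2 fold change was -0.74 with a standard error of 0.90 (95% interval -2.51 to 1.02). The log2 ratio of solved group means was -0.07 without the deeper induced library.

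The epithelial regulators were abundant, and each had a 95% interval that included 0. *Esrp1* (chromosome 4, 11331933 to 11386783, minus strand), an RNA-binding protein that sets epithelial splicing, had normalized counts of 2828 and 2693 in the control libraries and 2713 and 2571 in the induced libraries. Its highest library was 1.1 times its lowest, the smallest such ratio of the 10. The log2 fold change was -0.06 with a standard error of 0.12 (95% interval -0.30 to 0.18), which bounds the induced level between 81.1% and 113% of the control level. *Esrp1* was the only regulator whose reads were chosen by a limit on spread, since the mean and fold change left more than 1 solution, so its low spread rests partly on that limit.

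*Esrp2* (chromosome 8, 106130319 to 106137193, minus strand), the paralog with the same splicing role, had normalized counts of 935 and 1125 in the control libraries and 1165 and 1164 in the induced libraries. The induced values lay just above the higher control value. The log2 fold change was 0.17 with a standard error of 0.15 (95% interval -0.13 to 0.47). *Esrp2* exons overlap the antisense genes *Nfatc3* by 219 bases and *1810019D21Rik* by 119 bases, and *Esrp1* exons overlap the antisense gene *Gm16652* by 127 bases. Per kb, *Esrp1* exceeded *Esrp2* in all 4 libraries, by 1.52 to 2.08 times. *Ovol1* (chromosome 19, 5549137 to 5560575, minus strand), the zinc finger repressor, had normalized counts of 747 and 996 in the control libraries and 1121 and 691 in the induced libraries. Its induced libraries were the highest and the lowest of the 4, as for *Zeb1*. The log2 fold change was 0.05 with a standard error of 0.22 (95% interval -0.38 to 0.48), and the log2 ratio of solved group means was -0.34 without the shallower induced library and -0.14 without the shallower control library.

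**Figure D2:**
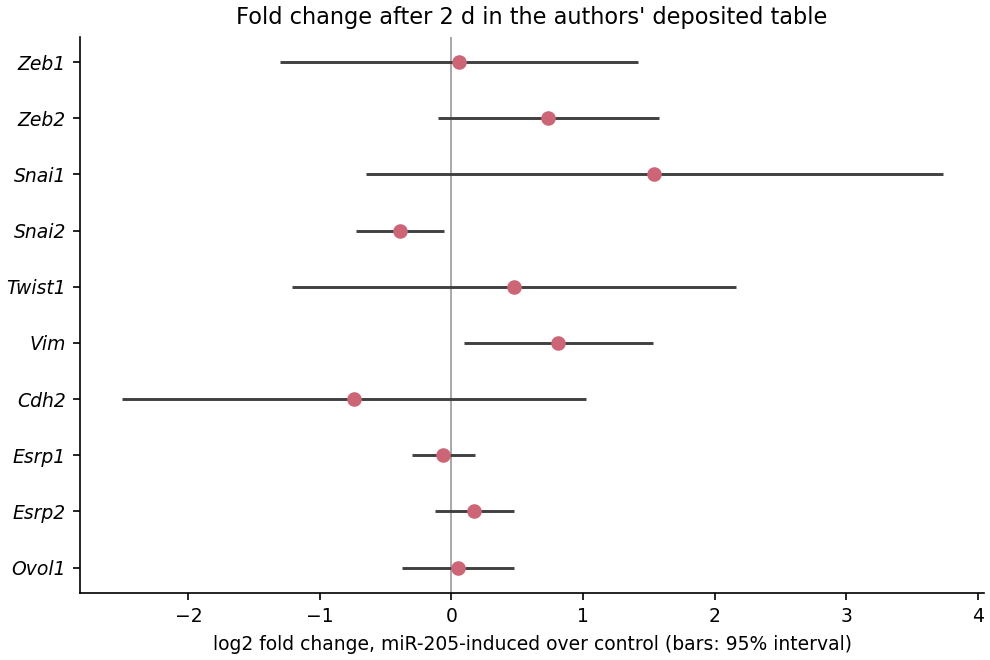
Log2 fold change of induced over control after 2 d for the 10 regulators (points) with 95% intervals (bars) from the authors' deposited table. The intervals of *Snai2* (-0.73 to -0.06) and *Vim* (0.09 to 1.53) leave out 0, the other 8 include it, and the widest belong to *Snai1*, *Cdh2*, *Twist1* and *Zeb1*.

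As a set, 0 of the 10 regulators passed the DESeq2 test at a Benjamini-Hochberg adjusted p under 0.05, against 2.35% of all 17044 genes, 1.91% that fell and 0.446% that rose. At an unadjusted p under 0.05, 2 did, *Snai2* lower and *Vim* higher, against 8.4% of all genes. Under limma, *Vim* alone passed, against 1.46% of the 16280 solved genes. The control and induced values did not overlap for 5 of the 10, against 40.6% of solved genes, so this count is near the background. The log2 fold change was above 0 for 7 regulators and below 0 for 3, with a median of 0.12 beside 0.02 over all genes tested. The median of all genes moved with abundance, from 0.27 among genes of like mean to *Snai1*, *Twist1* and *Cdh2* to -0.19 in the bin of highest means. That bin spans means of 2669 to 478853 and holds *Esrp1* near its lower edge, and the bin below it had -0.14. With the median of its bin subtracted, *Zeb1* turned to -0.17 and *Esrp1* to 0.13, and none of the 10 passed after adjustment. The shallower induced library held the highest value for 7 of the 10 and the lowest for 0, and it held the highest value for 26.9% of the solved genes.

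Levels were compared between the genes per kb of annotated exon. The order was *Vim* at 718 normalized counts per kb, *Esrp1* at 428, *Snai2* at 347, *Ovol1* at 306 and *Esrp2* at 253, then *Twist1* at 10.4, *Snai1* at 6.02, *Zeb2* at 4.49, *Zeb1* at 2.94 and *Cdh2* at 1.95. The gap between *Esrp2* and *Twist1*, of 24.2 times, was the only one between neighbours where the ranges over the 4 libraries did not overlap, and the other 8 neighbouring pairs overlapped. Over all pairs, the ranges were apart for 5 of 10 within the upper 5 (*Vim* and *Esrp1* above *Ovol1* and *Esrp2*, and *Snai2* above *Esrp2*) and for 3 of 10 within the lower 5 (*Twist1* above *Zeb1* and *Cdh2*, and *Zeb2* above *Cdh2*). The upper 5 lay at percentiles 84.7 to 94.7 of the 15373 genes with a length, and the lower 5 at percentiles 18.7 to 32.4. *Vim* was below *Esrp1* in the shallower control library, at 0.920 of its level per kb, and above it in the other 3, by 1.47, 2.44 and 1.91 times.

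**Figure D3:**
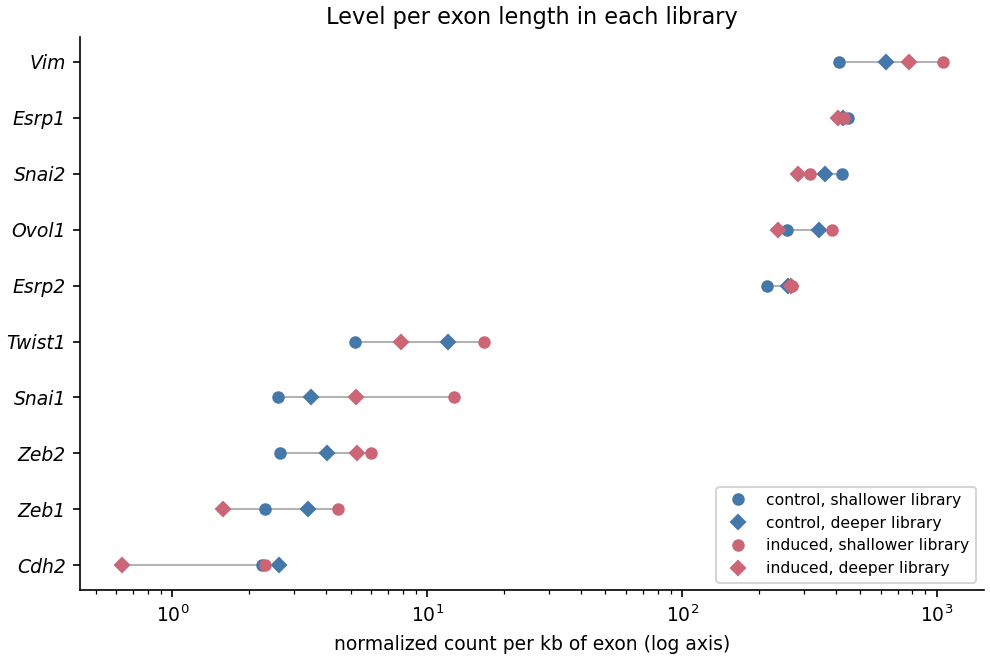
Normalized count per kb of exon (log axis) for each of the 10 regulators in each library, ordered by mean, with blue for control, red for induced, circles for the shallower and diamonds for the deeper library. The genes fall into an upper group from *Esrp2* (253) to *Vim* (718) and a lower group from *Cdh2* (1.95) to *Twist1* (10.4), with a gap of 24.2 times between them.

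The rows of the microRNA genes of the seed families had few reads, and a library of long RNA does not measure a mature microRNA. Whether transcripts of the transgene are counted in the *Mir205* row is not known from the sources used here. That row was therefore not used as a check of the transgene. The authors separately report a mild rise of miR-205 in sorted HF-SCs 2 d after induction. The row of *Mir205* held 8 and 17 reads in the control libraries and 1 and 8 in the induced libraries, with a log2 fold change of -1.65, a standard error of 1.25 and a DESeq2 Benjamini-Hochberg adjusted p of 0.981. *Mir200c* had 4, 6, 0 and 3 reads, and *Mir141*, *Mir429*, *Mir200a* and *Mir200b* had 0 to 3 reads per library.

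Among 40 epithelial junction and identity genes, 4 fell and 0 rose, against 1.91% of all genes that fell and 0.446% that rose. At an unadjusted DESeq2 p under 0.05 there were 9, against 8.4% of all genes. Here and for the lists below, these shares are over genes of every mean, and none was computed for genes of like mean. The median log2 fold change was -0.03, and bins of like mean had -0.08. Among the 4 that fell were *Prss8*, *Jup* and *Epcam*. *Prss8*, a membrane serine protease of epithelial barriers, had normalized counts of 874 and 949 in the control libraries and 521 and 462 in the induced libraries, a log2 fold change of -0.89 ± 0.17 (SE) and a DESeq2 Benjamini-Hochberg adjusted p of 2.60e-05. The most abundant members, the basal keratins *Krt5* and *Krt14*, had log2 fold changes of 0.14 ± 0.11 and 0.02 ± 0.11 and did not pass.

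Of 18 other transcription factors of the transition, 1 fell and 0 rose (3 at an unadjusted p under 0.05). The median was -0.15, and bins of like mean had -0.10. The one that fell was *Foxc1*, a forkhead factor that also maintains bulge quiescence, with normalized counts of 1191 and 1266 in the control libraries and 822 and 890 in the induced libraries, a log2 fold change of -0.52 ± 0.15 and a DESeq2 Benjamini-Hochberg adjusted p of 0.0229. *Sox4* went from 264 and 210 to 343 and 389 with a log2 fold change of 0.64 ± 0.23, but its adjusted p was 0.15. *Sox9* and *Tcf12*, the most abundant of this list, had -0.13 ± 0.13 and -0.17 ± 0.11.

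Of 34 mesenchymal genes, 1 rose and 1 fell (5 at an unadjusted p under 0.05). The median was 0.13, and bins of like mean had 0.004. *Thy1*, a surface glycoprotein of fibroblasts and T cells, rose from 771 and 873 to 1308 and 1220, a log2 fold change of 0.62 ± 0.15 with a DESeq2 Benjamini-Hochberg adjusted p of 0.00413. *Postn*, a matrix protein that is also on the HF-SC marker list, fell by 0.46 on the log2 scale (SE 0.11, adjusted p 0.00147). *Tgfbi*, another matrix protein, had a log2 fold change of -0.22 ± 0.11 and did not pass. None of 20 ZEB partner genes passed (2 at an unadjusted p under 0.05). Their median was -0.08, and bins of like mean had -0.14. The histone demethylase *Kdm1a* and the signal transducer *Smad1* came closest, at -0.41 ± 0.14 (adjusted p 0.121) and -0.33 ± 0.14 (adjusted p 0.357), and the abundant remodelling subunits *Chd4* and *Mta2* had -0.08 ± 0.12 and 0.04 ± 0.12.

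TGF-β signalling, a pathway known to raise Snail and ZEB factors, was represented by 21 genes. Of these 1 fell and 0 rose, against 1.91% of all genes that fell, and 8 had an unadjusted p under 0.05, against 8.4% of all genes. The median was -0.21 and 17 values were below 0, where the bins of like mean had a median of -0.10, and 15 of the 21 lay below the median of their bin. *Ltbp2*, a latent TGF-β binding family protein of the matrix, fell by 0.68 on the log2 scale (SE 0.13, DESeq2 Benjamini-Hochberg adjusted p 3.67e-05). *Ltbp1*, which tethers latent TGF-β, had -0.53 ± 0.17 (adjusted p 0.0832), and the corepressor *Tgif1* had -0.29 ± 0.12 (adjusted p 0.330).

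**Figure D4:**
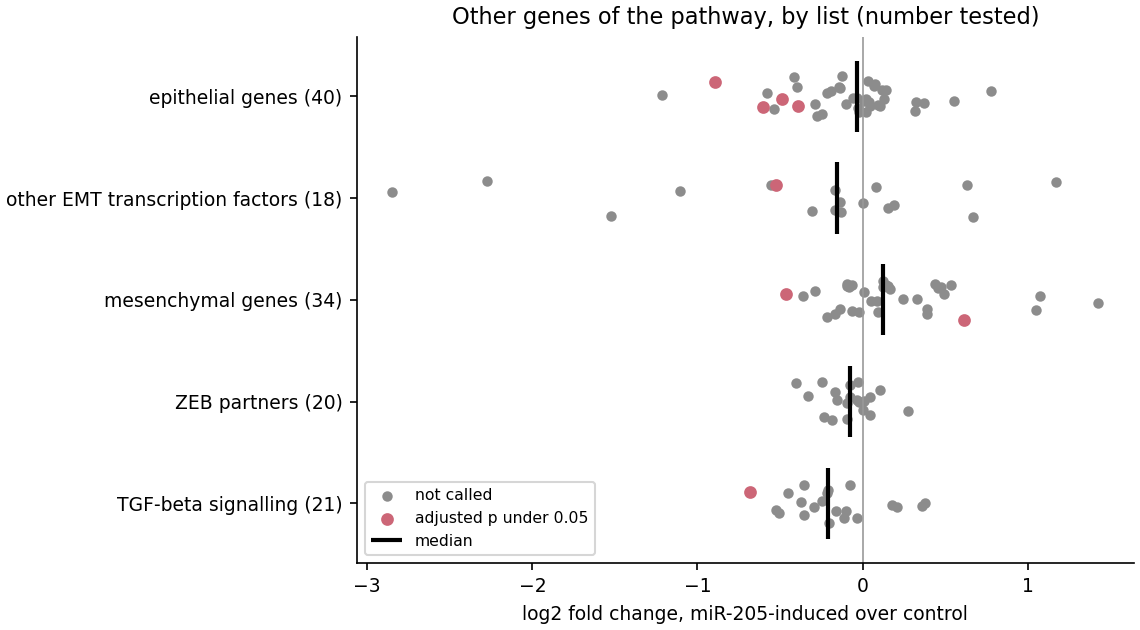
Log2 fold change of induced over control for each gene of 5 lists (points, spread vertically at random), with genes at an adjusted p under 0.05 in red and the list median as a black bar. The medians run from -0.21 (TGF-β signalling) to 0.13 (mesenchymal genes), and 4, 1, 2, 0 and 1 genes are red from top to bottom.

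*Vim* and the ZEB genes are also expressed outside the epithelium, for example in fibroblasts and leukocytes, so markers of cells that a bulge sort could hold were read in the same libraries. The sort gate, with H2BGFP driven by *Krt14*, is meant to leave such cells out. In bulk RNA, more cells of a type and more RNA per cell cannot be told apart. Of 20 myeloid and Langerhans markers, 3 rose (*Cd74*, *Lyz2* and *H2-Eb1*) and 0 fell, against 0.446% of all genes that rose. At an unadjusted p under 0.05 there were 11, against 8.4% of all genes. Of the 20, 19 had a log2 fold change above 0 and the median was 0.88, where bins of like mean had 0.08. Their summed normalized count was 5482 and 5884 in the shallower and deeper control libraries and 8832 and 11961 in the shallower and deeper induced ones. The groups did not overlap, as for *Vim* and *Zeb2* and for 40.6% of solved genes. The order within the induced group was the reverse, since *Vim* and *Zeb2* were higher in the shallower induced library. The 12 melanocyte markers had a median of 0.90 with 0 passing (2 at an unadjusted p under 0.05), and bins of like mean had 0.14. They summed to 2418 and 3355 in the control libraries and 4108 and 2736 in the induced ones. Most of that sum is *Mitf* (log2 fold change -0.24), and without it the sums were 392 and 991 in the control libraries and 2262 and 874 in the induced ones. The shallower induced library was the highest for the melanocyte sum, as it was for 7 of the 10 regulators, the epithelial *Esrp2* and *Ovol1* among them. Defining genes were present, with *Dct* at 170 to 1041 normalized counts per library, whereas *Oca2* and *Gpr143*, and the myeloid gene *Cx3cr1*, were at 0 in some libraries.

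The other marker lists moved less or rested on few reads. The 16 fibroblast markers had a median of 0.25, where bins of like mean had 0.02. There was 1 rise (*Thy1*), and 2 markers had an unadjusted p under 0.05. The 12 that could be solved summed to 5531 and 5793 in the control libraries and 6203 and 5975 in the induced ones. These sums did not overlap, as for 40.6% of solved genes. Within them *Thy1* went from 771 and 873 to 1308 and 1220, a rise larger than the gap between the sums. The sums therefore show no rise of the other summed genes. The abundant *Col1a1*, *Col1a2*, *Col3a1* and *Sparc* are not in the sum, with log2 fold changes of 0.33, 0.24, 0.17 and -0.07. The 10 endothelial markers had a median of 0.58 with 0 passing (0 at an unadjusted p under 0.05). Bins of like mean had 0.27, and the sums were 127 and 253 against 299 and 221. The 9 Schwann cell markers had a median of 0.27 with 0 passing (0 at an unadjusted p under 0.05). Bins of like mean had 0.11, and the sums were 1642 and 1823 against 2023 and 1686. Of 8 mast cell markers 1 rose, *Mcpt4*, and 3 had an unadjusted p under 0.05. The median was 0.34, where bins of like mean had 0.20, and the sums were 97.7 and 129 against 392 and 144. Of 7 T cell markers 1 rose, which is again *Thy1* and the only 1 at an unadjusted p under 0.05. Their median was -0.50, and bins of like mean had 0.27. Most of their sum is *Thy1*, and without it the sums were 34.9 and 24.3 in the control libraries and 21.7 and 43.3 in the induced ones. *Cd3d* was at 0 in both induced libraries, but at only 2.79 and 0.81 normalized counts in the control libraries. Of the 18 HF-SC markers, 5 had an unadjusted p under 0.05. The list had 3 falls (*Cd34*, *Foxc1* and *Postn*) and 0 rises, where 1.91% of all genes fell. The median of the list was -0.12, and the bins had -0.19, the value of the bin of highest means (2669 to 478853). The 6 solved HF-SC markers summed to 6916 and 7039 in the control libraries and 5922 and 5985 in the induced ones. Without *Id2*, the most abundant of the 6, the sums were 3934 and 3902 against 3433 and 3520. The more abundant HF-SC markers are not in this sum, among them *Krt15* (log2 fold change -0.06), *Cd34* (-0.38) and *Lgr5* (-0.02). The part of these cells in the values of *Vim*, *Zeb1* and *Zeb2* was not tested.

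**Figure D5:**
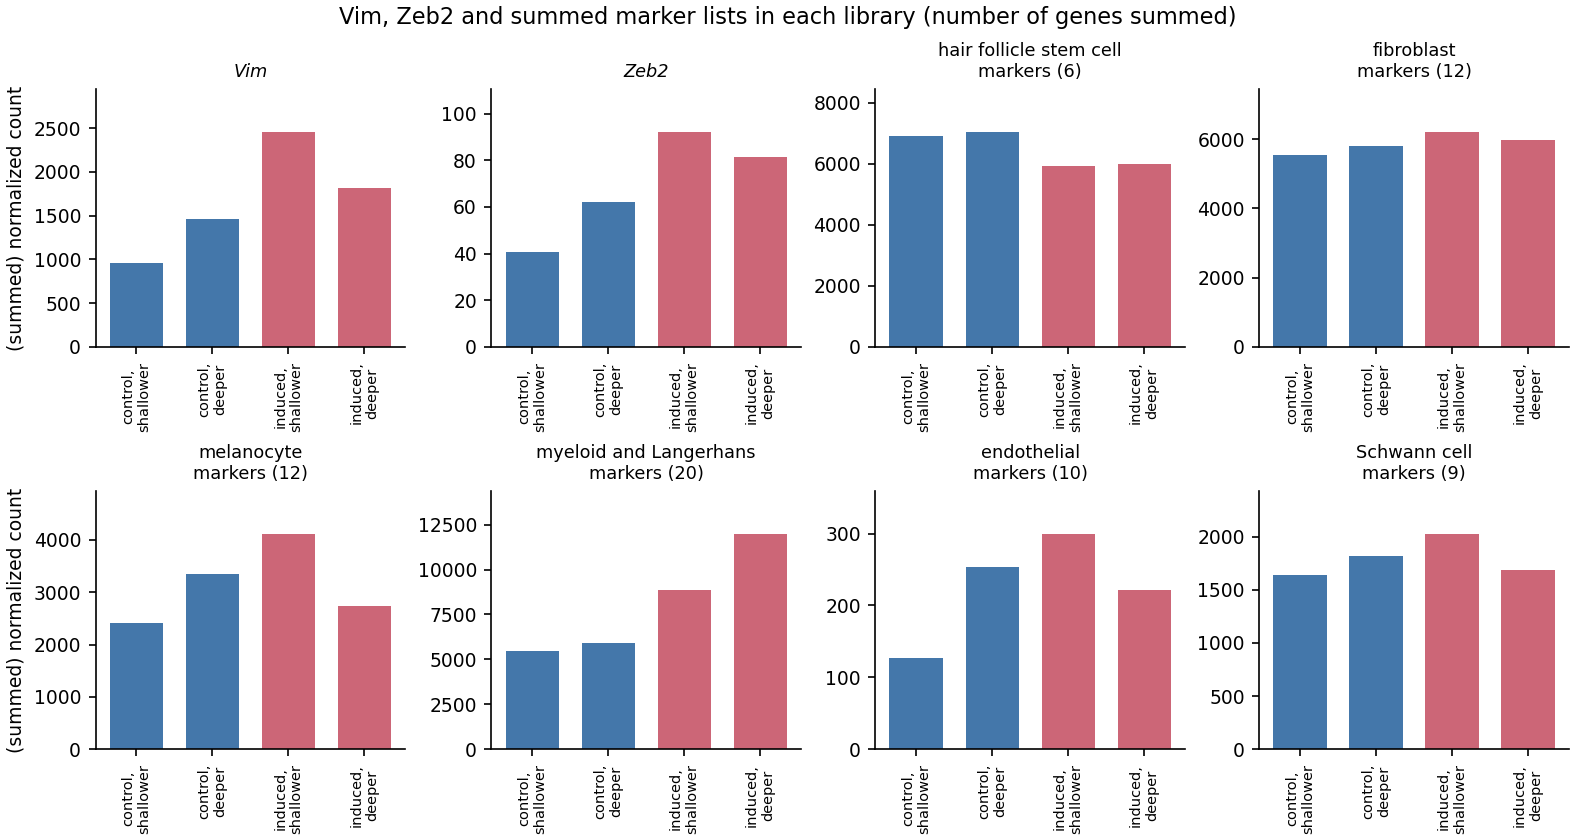
Normalized counts of *Vim* and *Zeb2* and summed normalized counts of 6 marker lists (linear axes from 0, number of summed genes in brackets) in the control (blue) and induced (red) libraries. The myeloid and Langerhans sum lies at 5482 to 5884 in the control and 8832 to 11961 in the induced libraries. The fibroblast, melanocyte, endothelial and Schwann cell sums peak in the shallower induced library, as *Vim* and *Zeb2* do. The myeloid and Langerhans sum peaks in the deeper induced library instead. The fibroblast sum includes *Thy1*, which is also highest in the shallower induced library. Genes with a mean above 3000 are not in the sums.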

How the data were processed

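RNA of sorted HF-SCs was sequenced as 150-nt paired-end reads from a directional kit, in 2 libraries of each group. Per the methods and the submitters' processing notes, the authors used HISAT2 2.1.0, SAMtools 1.3.1, HTSeq for counting and DESeq2 at default settings. The DESeq2 version, annotation and strand setting are not stated in these sources. The build is mm10 in the labels, and places are on RefSeq GRCm38.p6, while exon lengths, overlaps and 3′UTRs come from GENCODE vM1 on NCBIM37.

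The deposited table holds the authors' mean normalized count (a signal averaged over libraries), log2 fold change with its standard error (log2), Wald statistic (a score), p-value and adjusted p-value. Unless limma is named, fold changes, standard errors and p-values printed are those of the authors' deposited table, with p-values adjusted again by Benjamini-Hochberg over 17044 genes, cutoff 0.05. Values without a library are log2 ratios of solved group means (pseudocount 1). The table has 0 columns of per-sample values, so read counts were solved from its means. Genes with reads in 1 library gave the size factors, and the sign of their fold change gave each library's group, without a replicate number. The mean alone left 1 solution for 15166 genes, all with a mean up to 2000, the fold change raised this to 16134 with a mean up to 3000, and a limit of 5 SD on the spread within groups, chosen after seeing the data, to 16280. The 764 genes with a higher mean were not solved. The p-values measure only the spread between these samples, which may be technical, and reads carry counting error.

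The steps were tested on simulated data. The 10 regulators and the gene lists were chosen with earlier results of these data known. All 10 are named, and from each pathway list the 2 genes with the highest mean and the 2 with the lowest p, while *Jup*, *Epcam* and the marker genes named were chosen after their values were seen. An item withheld for evaluation is not reported here. *Trac*, *Trbc2* and *Trdc* of the T cell list had no row. Alternatives were the authors' adjusted p, mean filters of 50 and 200, the unadjusted p, subtraction of the median of 20 bins of mean, limma with a mean trend on log2(normalized count + 1), other pseudocounts, and each library left out. Software versions were R 4.3.3, limma 3.58.1, Python 3.11.15, pandas 2.3.3, numpy 2.4.6, numba 0.67.0, scipy 1.17.1 and matplotlib 3.10.9.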

Additional observations from a re-analysis of the deposited data

How the results depend on the processing

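None of the 10 regulators passed with the authors' adjusted p, with a mean filter of 50 or 200 (6 and 5 regulators tested), with bin medians subtracted or with any 1 library left out of limma. At the unadjusted p the count was 2 (*Snai2*, *Vim*), and with limma on all 4 libraries it was 1 (*Vim*). Over all genes, 401 were called, against 1432 at the unadjusted p, 183 with bin medians subtracted (115 lower, 68 higher) and 238 with limma (148 lower, 90 higher). Limma with each library left out called 0 genes in each case, with 1434 to 2003 at an unadjusted p under 0.05, and the lone library is then assumed to vary like the other group. Of 70 recomputed log2 fold changes, 58 moved by less than 1 SD with no change of sign, 5 moved by more and 7 changed sign. With bin medians subtracted, *Zeb1* was -0.17 and *Esrp1* 0.13. With each library left out, the ranges were -0.82 to 0.63 for *Zeb1*, 0.47 to 1.08 for *Zeb2*, 0.68 to 1.87 for *Snai1*, -0.50 to -0.28 for *Snai2*, -0.12 to 1.15 for *Twist1*, 0.54 to 1.15 for *Vim*, -1.76 to -0.07 for *Cdh2*, -0.10 to -0.02 for *Esrp1*, 0.05 to 0.32 for *Esrp2* and -0.34 to 0.36 for *Ovol1*. With a pseudocount of 10, *Snai1* was 0.72. The cause of these shifts was not tested. The solved libraries carry no replicate number, so the replicate numbers could not be used to pair them. Limma with each of the 2 possible pairings as a block, added after seeing the data and with 1 residual degree of freedom, called 702 and 656 genes, with 1 regulator (*Vim*) in each. Depth limits *Zeb1*, *Snai1*, *Twist1* and *Cdh2*, which had 3 to 42 reads per library, and 5 of the 10 had no adjusted p in the table.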
